A study of Arabidopsis thaliana with 20 samples.

Results

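The siRNAs of a G:U hairpin were compared between plants with and without RNA polymerase IV in 4 small RNA libraries, out of 20 samples in the labels. They are 2 libraries of nrpd1a plants (numbers 2 and 18) and 2 libraries of Col-0 plants (numbers 12 and 13), all from the second deposited table, and they were chosen by genotype and hairpin as the titles give them. Every plant was Arabidopsis thaliana of the Columbia ecotype, was sampled whole at 3 weeks of age, and carried the transgene hpEIN2[G:U], written hpEIN2[GU] in these titles. The controls therefore carried the hairpin too, and no library without a hairpin was used. The mutant plants also carried the nrpd1a mutation, whose allele the labels do not name. The study compared how hairpin RNAs of different structure are processed into small RNAs, and the mutant bears on the part of RNA polymerase IV in it. Whether both libraries of a genotype stem from separate plants, pools or transgenic lines is not stated in the labels, so the spread between them may be technical. The mutant and control libraries carry different numbers; if these mark transgenic lines, genotype and line cannot be told apart. NRPD1A itself could not be checked, because the tables hold reads of the hairpin stem only. For comparison, later paragraphs also draw on other libraries, 11 being used in all. These come from first-table Columbia plants and ocp11 plants (ARGONAUTE4 mutants) with the G:U hairpin, and from Col-0 and nrpd1a plants with the WT hairpin. These plants were 3 weeks old too.

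A hairpin RNA is an inverted repeat whose transcript folds back into a double-stranded stem. Dicer-like enzymes cut such stems into siRNAs of both strands, DCL4 into 21-nt, DCL2 into 22-nt and DCL3 into 24-nt molecules. In the hairpin used here, wobble pairs between G and U replace some of the ordinary pairs of the stem. The target, EIN2 (AT5G03280, chromosome 5 from 787428 to 793404 in TAIR10.1), encodes a membrane protein required for ethylene signalling. NRPD1A (AT1G63020, chromosome 1 from 23354685 to 23362589 in TAIR10.1) codes for the largest subunit of Pol IV (RNA polymerase IV), which makes short transcripts at silenced loci. RDR2 turns them into double-stranded RNA, and DCL3 cuts this into 24-nt siRNAs that guide DNA methylation. A hairpin transcript is double-stranded by itself. The stretch of EIN2 in the stem is not given in the sources used here, so no siRNA is placed on the gene and no sequence is shown.

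The values are raw read counts by strand and length from 18 to 25 nt. Sense reads were those on the GU stem and antisense reads, which can pair with the mRNA of EIN2, those on the WT stem. The Col-0 libraries 12 and 13 held 103583 and 142131 such reads, and the nrpd1a libraries 2 and 18 held 65840 and 79498. The tables used here give no library totals, so these counts do not measure how abundant the siRNAs were, and each class is given as a share of its strand. The 95% Wilson interval of a length share or of the antisense share reached at most 0.851 percentage points to either side in these 4 libraries. It covers counting error only. The 16 classes (8 lengths on 2 strands) were tested with edgeR's quasi-likelihood test on the counts as a share of their strand, with Benjamini-Hochberg adjustment over the 16 and a threshold of 0.05. Classes of a strand share their total, so a gain in one lowers the shares of the others. For single shares and ratios a two-sided exact permutation test of 2 against 2 libraries cannot go below p = 0.333, so none could pass 0.05, and differences are set against the spread between libraries.

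The 24-nt class made up a smaller part of sense siRNAs in nrpd1a than in Col-0, and it remained a main class there. It held 30.7% and 28.1% of sense reads in Col-0 libraries 12 and 13, and 22.1% and 21.4% in nrpd1a libraries 2 and 18. The groups did not overlap and their nearest libraries were 5.96 percentage points apart. The class had a mean of 29.4% ± 1.83 in Col-0 and 21.8% ± 0.515 in nrpd1a (SD, n = 2 each), a quotient of 0.741. The fall had a log2 change of -0.43 (SE 0.057, edgeR adjusted p = 0.00126), and the exact permutation p was 0.333. The 4 run entries of each library, which differed by no more than sampling noise, kept the same order. They ran from 27.6% to 31.3% in Col-0 and from 21.2% to 22.2% in nrpd1a. With 11654 and 13029 sense reads of 24 nt, it was the second largest sense class in both mutant libraries. Of the settings that kept to second-batch libraries, 3 ended the edgeR call. The adjusted p was 0.0907 with TMM scaling over both strands, 0.0989 with the ocp11 libraries sharing the dispersion, and 0.0752 with DESeq2 (log2 change -0.35).

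The direction of that difference depended on the control libraries. The first deposited table, which the submitters name as an earlier batch, holds libraries of Columbia plants with the same hairpin and with the numbers 12 and 13. Their 24-nt sense shares were 14.3% and 14.8%, below both nrpd1a libraries. Set against them alone, the nrpd1a share was 7.23 percentage points higher (exact permutation p = 0.333; edgeR log2 change 0.58, adjusted p = 0.0197). With them added to the Col-0 libraries, the edgeR log2 change was -0.01 (adjusted p = 0.976). The comparison within the second table is the one within a batch, since both mutant libraries are from that table. In the ocp11 libraries of the second table, mutants of ARGONAUTE4, which binds 24-nt siRNAs, the share was 16.3% and 24.6%, and the nrpd1a values lay between them.

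**Figure D1:**
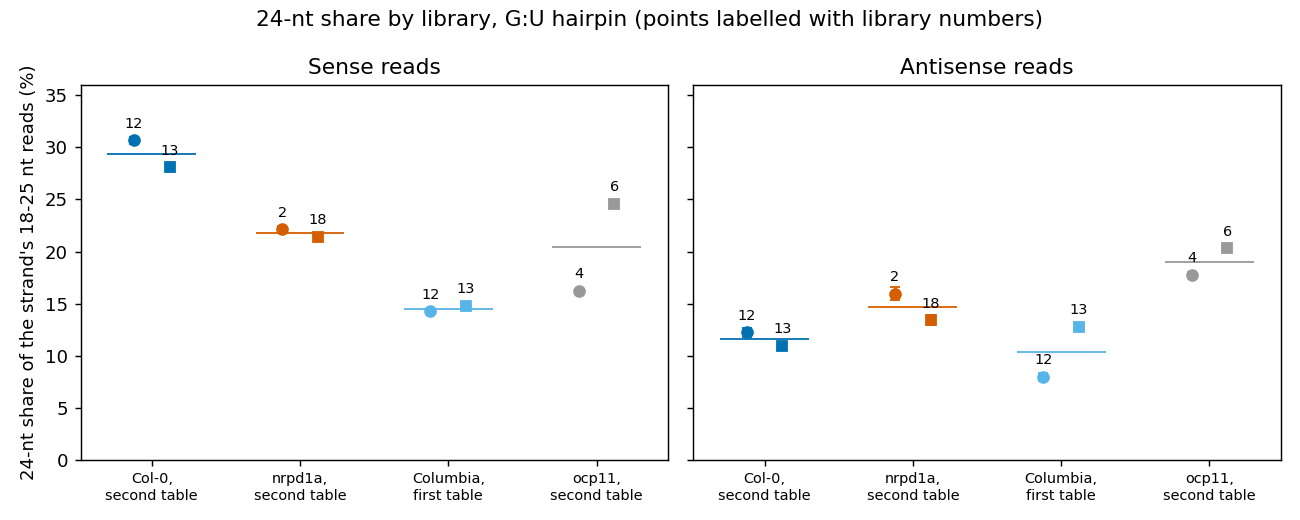
Share of 24-nt reads among the 18-25 nt reads of each strand (%), 1 point per library of the G:U hairpin with its number, bars for 95% Wilson intervals (often smaller than the point) and lines for group means. The sense share of the nrpd1a libraries (22.1% and 21.4%) lies below Col-0 of that table and above the Columbia libraries of the first table, and the antisense share (15.9% and 13.4%) lies above both Col-0 libraries.

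Antisense siRNAs of 24 nt did not move the same way. Their share of antisense reads was 12.2% and 10.96% in Col-0 libraries 12 and 13 and 15.9% and 13.4% in nrpd1a libraries 2 and 18, so each mutant library lay above each control. The means were 11.6% ± 0.894 and 14.7% ± 1.80 (SD, n = 2 each). The log2 change of 0.34 (SE 0.13) did not pass the threshold (edgeR adjusted p = 0.0663). The run entries of Col-0 library 12 reached 13.5% and those of nrpd1a library 18 went down to 12.8%, so at the depth of a single run entry the groups overlapped. The adjusted p was 0.0146 in edgeR without the classes under 1% of their strand, 0.00535 over 20 to 24 nt, and 0.0187 in DESeq2. It was 0.107 in edgeR with the library size of both strands, 0.119 with TMM, 0.312 with the ocp11 libraries sharing the dispersion, and 0.0926 to 0.469 with 1 library left out. Without nrpd1a library 2 the log2 change was 0.21 and the difference of shares 1.80 percentage points, against 3.08 with it. The first-table libraries, at 7.95% and 12.8%, were below both nrpd1a libraries here too. The excess of the sense over the antisense 24-nt share was 17.8 ± 0.936 percentage points in Col-0 and 7.09 ± 1.28 in nrpd1a (SD, n = 2 each), a difference of -10.7 (exact permutation p = 0.333, the smallest possible). Against the first-table libraries alone this difference was 2.91. The antisense part of all 24-nt reads was 10.08% and 8.26% in Col-0 and 15.3% and 16.1% in nrpd1a, without overlap. In ocp11 libraries 4 and 6 this part was 20.6% and 18.0%, and the 24-nt antisense share was 17.7% and 20.3%. Both measures were above both nrpd1a libraries there, so higher values than in Col-0 were not particular to nrpd1a.

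In percentage points the largest difference among sense classes was in the 21-nt class, the product of DCL4. It held 39.6% and 39.3% of sense reads in Col-0 and 55.6% and 53.5% in nrpd1a. The nearest libraries differed by 13.9 percentage points, while the SD within groups was 0.210 in Col-0 and 1.48 in nrpd1a (n = 2 each). The class rose by 15.1 percentage points (log2 change 0.47, SE 0.034, edgeR adjusted p = 0.000107). TMM scaling over both strands ended this call (edgeR adjusted p = 0.102). So did the first-table libraries as the only controls (log2 change 0.04, edgeR adjusted p = 0.674) or as added ones (0.24, adjusted p = 0.429). Those libraries had 21-nt sense shares of 50.3% and 56.1%, around the nrpd1a values. In ocp11 libraries 4 and 6 of the second table the share was 57.2% and 47.7%. Both were above both Col-0 libraries, so a higher share than in Col-0 was not particular to nrpd1a.

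Sense classes other than 24 nt fell as well. Sense siRNAs of 22 nt, the product of DCL2, made up 9.03% and 9.15% in Col-0 and 6.46% and 7.25% in nrpd1a (log2 change -0.41, SE 0.089, edgeR adjusted p = 0.0145). The 23-nt class, which no Arabidopsis Dicer-like enzyme is known for as its main product, made up 4.73% and 5.03% in Col-0 and 2.54% and 2.60% in nrpd1a. It fell most of the sense classes on the log2 scale (-0.93, SE 0.10, edgeR adjusted p = 0.000779). Within the second table this call held in every setting tried, and it ended with first-table controls in place (log2 change -0.41, edgeR adjusted p = 0.116) or added (-0.69, adjusted p = 0.212). The 20-nt class also passed (11.7% ± 1.24 in Col-0 and 9.47% ± 0.788 in nrpd1a, SD, n = 2 each; edgeR adjusted p = 0.0462), as did the small 25-nt class (0.487% ± 0.107 and 0.329% ± 0.0199, SD, n = 2 each; edgeR adjusted p = 0.0411). The 22-nt call ended with TMM scaling, DESeq2, the ocp11 libraries sharing the dispersion or first-table controls (adjusted p 0.0624 to 0.220), and without Col-0 library 12, Col-0 library 13 or nrpd1a library 2 (edgeR adjusted p 0.0584, 0.0665 and 0.117). The 20-nt and 25-nt calls ended in 8 and 6 of the 13 and 11 settings that gave a value. Without nrpd1a library 2 or Col-0 library 13 the 20-nt adjusted p was 0.179 and 0.278, and without nrpd1a library 2 or 18 the 25-nt adjusted p was 0.244 and 0.112 (edgeR). Sense siRNAs of 18 and 19 nt did not pass the test.

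**Figure D2:**
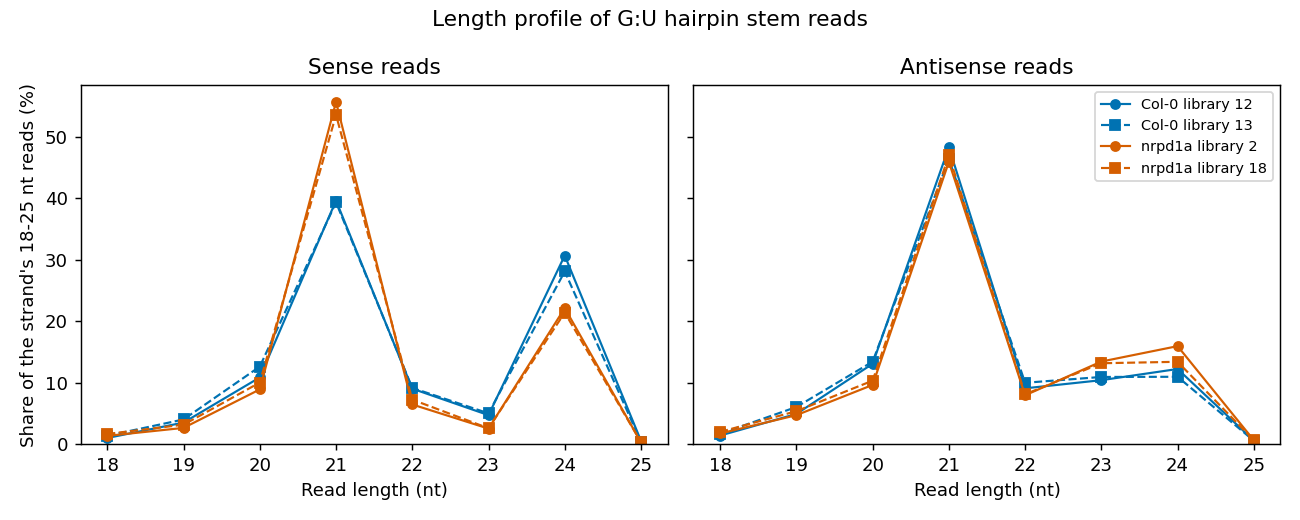
Share of each read length among the 18-25 nt reads of its strand (%), 1 line per library of the G:U hairpin in Col-0 (blue) and nrpd1a (orange). Among sense reads the 21-nt peak is higher in nrpd1a (55.6% and 53.5% against 39.6% and 39.3%) and the 24-nt peak lower, while the 21-nt antisense peaks of the 4 libraries lie between 45.9% and 48.3%.

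Relative to the 21-nt class, most other sense lengths were lower in nrpd1a than in Col-0 of the second table, not the 24-nt class alone. Col-0 libraries 12 and 13 had 0.774 and 0.714 sense reads of 24 nt per 21-nt read, and nrpd1a libraries 2 and 18 had 0.398 and 0.400. The ratio in nrpd1a was thus 0.536 of that in Col-0. The 22-nt class stood at 0.228 and 0.233 per 21-nt read in Col-0 and at 0.116 and 0.135 in nrpd1a, a quotient of 0.546. For 20 nt and 19 nt the quotients were 0.584 and 0.559, and for 23 nt 0.381. Of the 7 sense lengths other than 21 nt, 6 (85.7%) had lower ratios in both nrpd1a than in both Col-0 libraries, and the 18-nt ratio overlapped. All 7 ratios share the 21-nt count as denominator, and the 21-nt share was higher in nrpd1a, so they are not separate results. The 24-nt ratio depended on the control libraries. In the first-table libraries it was 0.283 and 0.264, below both nrpd1a libraries, and against them alone the nrpd1a ratio was 0.125 higher (exact permutation p = 0.333). The first-table ratios of 20 nt (0.308 and 0.210), 22 nt (0.169 and 0.153) and 23 nt (0.0678 and 0.0609) lay above both nrpd1a libraries. In ocp11 libraries 4 and 6 the ratio was 0.284 and 0.516 for 24 nt and 0.129 and 0.184 for 22 nt. For 20 nt it was 0.178 and 0.191, and for 23 nt 0.0673 and 0.106. All of these were below both Col-0 libraries of the second table, so lower ratios were not particular to nrpd1a.

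Within the second table the classes were also set against sense reads other than those of 21 nt, a denominator chosen after the values were seen. Among these, 24-nt reads made up 50.8% and 46.3% in Col-0 libraries 12 and 13, and 49.9% and 46.1% in nrpd1a libraries 2 and 18. The difference of means was -0.570 percentage points, less than the spread within either group (SD 3.19 and 2.69, exact permutation p = 0.667). The 22-nt class held 15.0% ± 0.0889 and 15.1% ± 0.737 of these reads and the 20-nt class 19.4% ± 1.99 and 20.8% ± 1.06 (SD, n = 2 each). The 23-nt class was lower in both nrpd1a libraries (5.72% and 5.59%) than in both Col-0 libraries (7.83% and 8.28%). In antisense reads other than 21 nt, the 24-nt share was 22.04% ± 2.26 in Col-0 and 27.4% ± 2.98 in nrpd1a (SD, n = 2 each).

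**Figure D3:**
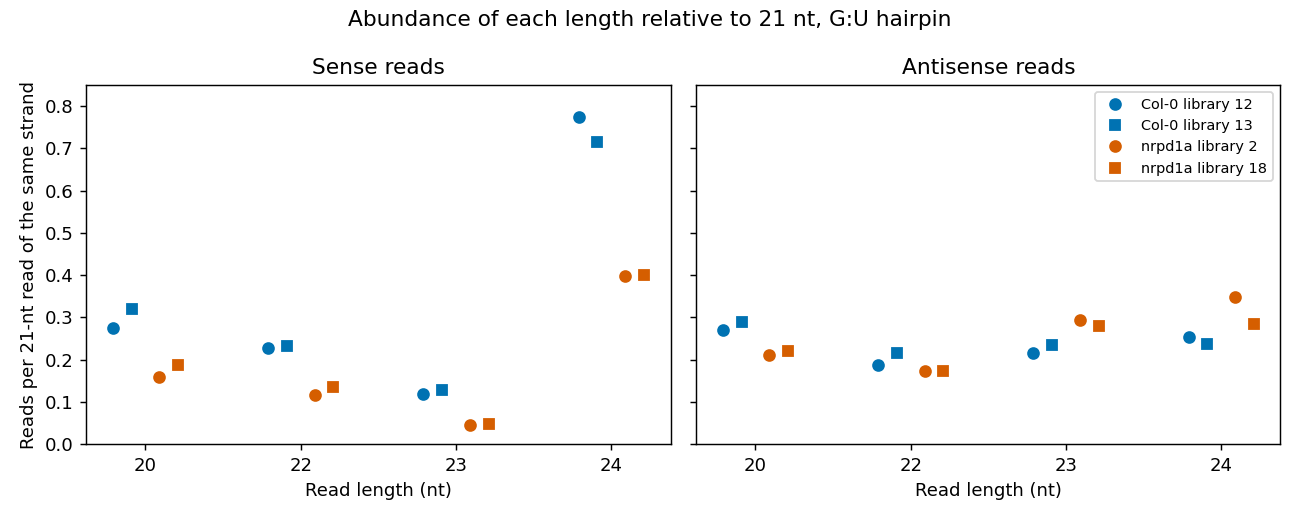
Reads of 20, 22, 23 and 24 nt per 21-nt read of the same strand, 1 point per library of the G:U hairpin. All 4 sense ratios are lower in nrpd1a than in Col-0 of the second table (24 nt: 0.398 and 0.400 against 0.774 and 0.714), while the antisense ratios are lower for 20 and 22 nt and higher for 23 and 24 nt.

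Antisense siRNAs kept their main peak. Their 21-nt class held 48.3% and 46.4% in Col-0 and 45.9% and 46.95% in nrpd1a, and the groups overlapped (log2 change -0.03, edgeR adjusted p = 0.682). Among the other antisense classes, the 23-nt class rose, from 10.4% and 10.9% in Col-0 to 13.4% and 13.2% in nrpd1a (log2 change 0.32, SE 0.11, edgeR adjusted p = 0.0462). The 20-nt class fell, from 13.1% and 13.4% to 9.64% and 10.3% (log2 change -0.41, SE 0.11, edgeR adjusted p = 0.0287). Neither call held without any 1 of the 4 libraries, where the edgeR adjusted p ran from 0.175 to 0.341 for 23 nt and from 0.0833 to 0.292 for 20 nt. The calls ended in 9 and 10 of 13 settings, among them TMM scaling (edgeR adjusted p = 0.119 and 0.130). Against first-table controls, whose 23-nt antisense shares were 18.9% and 11.9%, the 23-nt log2 change was -0.21 (edgeR adjusted p = 0.614). The 22-nt antisense share was 9.09% and 9.99% in Col-0 and 7.95% and 8.12% in nrpd1a and did not pass (edgeR adjusted p = 0.107). The 18-nt, 19-nt and 25-nt antisense classes did not pass either.

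Over both strands, 8 of the 16 classes (50% of those tested) passed the edgeR test, 2 of them higher in nrpd1a (12.5%) and 6 lower (37.5%). With DESeq2's size factors 6 passed, 4 higher and 2 lower, and with TMM 2 passed, both lower. The median log2 change of the 16 classes was -0.18 in edgeR and 0.0070 in DESeq2. Among the 8 sense classes 1 was higher in nrpd1a and 5 were lower, and among the 8 antisense classes 1 was higher and 1 lower. The groups did not overlap in 13 of the 16 classes, 81.2% of them, with 5 higher (31.2%) and 8 lower (50%) in nrpd1a. The whole profile can be put as the percentage points of reads that would have to change length to turn one profile into the other. For sense reads this distance was 15.4 between the mean profiles of Col-0 and nrpd1a, and 3.04 and 2.82 between the libraries of a group. For antisense reads it was 6.09 between the means and 3.19 and 2.82 within the groups. The sense distance between the Columbia libraries of the first table and Col-0 of the second, with the same genotype and hairpin, was 16.9. The antisense distance between them was 6.12. Both were above the distances between Col-0 and nrpd1a. Between the means of the first-table libraries and of nrpd1a the distance was 8.63 for sense and 5.57 for antisense reads. Both of these were below the distances between Col-0 and nrpd1a.

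The balance of the strands as a whole gave no separation. Antisense reads made up 21.9% and 18.7% of stem reads in Col-0 libraries 12 and 13 and 19.99% and 23.4% in nrpd1a libraries 2 and 18. The difference of 1.36 percentage points was below the SD within groups (2.27 and 2.41, exact permutation p = 0.667). By length, the antisense part was higher in both nrpd1a libraries than in both Col-0 libraries for 5 of the 8 lengths (62.5%), namely 19, 22, 23, 24 and 25 nt, lower for 21 nt, and overlapped for 18 and 20 nt. In percentage points reads of 23 nt differed most, while the quotient of means was larger for 24 nt (1.71) than for 23 nt (1.64). The antisense part of 23-nt reads was 38.2% and 33.4% in Col-0 and 56.9% and 60.8% in nrpd1a, so that in the mutant most 23-nt reads were antisense. In the first-table libraries it was 53.1% and 35.3%, and in ocp11 34.5% and 57.2%, so libraries of 1 genotype also lay far apart. For 21 nt it was 25.5% and 21.4% in Col-0 and 17.1% and 21.1% in nrpd1a, with the nearest libraries 0.244 percentage points apart.

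**Figure D4:**
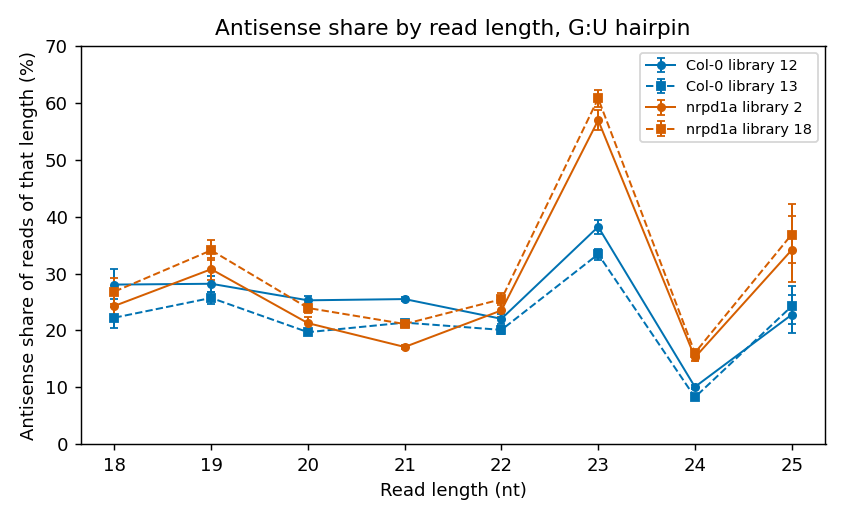
Antisense share of the reads of each length (%), 1 line per library of the G:U hairpin, with 95% Wilson intervals. At 23 nt the nrpd1a libraries (56.9% and 60.8%) lie above the Col-0 libraries (38.2% and 33.4%), and at 24 nt all 4 libraries have their lowest antisense share, from 8.26% to 16.1%.

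The same table holds libraries of the perfectly paired WT hairpin, whose reads of both strands were taken on the WT stem. The nrpd1a libraries among them held 34504 and 12567 stem reads, and the Col-0 library held 343168. With that hairpin the 24-nt sense share was 22.4% in the 1 Col-0 library and 12.5% ± 1.48 in nrpd1a (SD, n = 2). With the G:U hairpin the means were 29.4% in Col-0 and 21.8% in nrpd1a. The difference was -9.92 percentage points with the WT hairpin and -7.62 with the G:U hairpin. These start from unlike Col-0 shares, and falls relative to the Col-0 share were not tested. The effects differed by 2.31 percentage points (exact permutation of genotypes within hairpins, two-sided, p = 0.889). With 1 library left out the difference of the effects ran from 1.01 (without Col-0 library 13 of the G:U hairpin) to 3.60 (without its library 12). With 1 Col-0 library of the WT hairpin the test cannot go below 0.0556, so it could not pass and says nothing on whether the effects differ. As shares of both strands the difference of the effects was -4.58 (exact permutation p = 0.278).

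A few reads of the G:U libraries fell on the other stem block. Sense reads on the WT stem made up 1.24% and 1.23% of sense reads in Col-0 libraries 12 and 13 and 0.583% and 0.265% in nrpd1a libraries 2 and 18, without overlap. In the first-table libraries the share was 0.890% and 0.652%, above both nrpd1a libraries as well. In ocp11 libraries 4 and 6 it was 0.0934% and 0.440%, so a low share was not particular to nrpd1a. Of these reads, 12.7% and 9.65% were 24 nt long in Col-0, and 10.4% and 3.09% (32 of 309 and 5 of 162 reads) in nrpd1a. Antisense reads on the GU stem were 0.167% and 0.262% in Col-0 and 0.303% and 0.182% in nrpd1a, and the groups overlapped.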

How the data were processed

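Small RNA libraries were made by a service provider from Trizol-extracted total RNA, per the labels' protocols. The authors deposited raw read counts by strand, stem (WT or GU) and length, per the file headers. Cutadapt, Bowtie 1.0 and TAIR10 are named in the submitters' processing notes. The sources used here do not state the mismatches allowed, any read filter or the handling of reads that match both stems, which could enter either stem. Library totals were not used here.

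The 4 entries per library of the second table, headed replicate, differed by no more than sampling noise (chi-square over classes with at least 20 reads, lowest p = 0.168 in the 4 libraries), were summed and were counted as 1 replicate. Groups came from titles. The table numbers one WT hairpin library of nrpd1a 13 where its title has 3; it was used for the hairpin comparison only. The genotypes share no library number.

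Counts were tested with edgeR 4.0.16 in R 4.3.3 (glmQLFit, offset by the strand's reads, no filter, 4 libraries, checked on simulated counts), and single measures with exact permutation tests (Python 3.11.15, numpy 2.4.6). Alternatives included DESeq2 1.42.0, TMM, 20 to 24 nt, both stems summed, first-table controls and leaving out libraries. By rule, lengths of 21 to 24 nt are printed per library and other lengths as means unless called. The libraries, classes and measures were chosen with earlier results of these data known. Sequences of the stem were not used here.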

Additional observations from a re-analysis of the deposited data

Results flagged for a closer look

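The 6 measures of 23-nt and 24-nt reads given here were picked because the nrpd1a effect was opposite between the hairpins. Every nrpd1a library with the WT hairpin differed from its Col-0 in the opposite direction from every nrpd1a library with the G:U hairpin. That direction is fixed by the choice. It was also opposite for the 20-nt sense share, the 25-nt antisense share and the antisense part of 19-nt, 22-nt and 25-nt reads. The numbers of 23-nt and of 25-nt per 21-nt antisense reads were opposite too. None of these was among the measures considered for this list. For other measures, such as the 21-nt and 24-nt sense shares, the direction was not opposite. Each value here is the effect of nrpd1a with the G:U hairpin minus that with the WT hairpin. It was 18.9 percentage points for the 24-nt share of antisense reads, which was 25.6% in the 1 Col-0 library with the WT hairpin and 9.78% ± 0.195 (SD, n = 2) in nrpd1a. It was 9.59 percentage points for the 23-nt antisense share and 0.538 for the number of 24-nt per 21-nt antisense reads. For the antisense part of 24-nt reads it was 28.6 and for that of 23-nt reads 44.3 percentage points, and for the excess of the sense over the antisense 24-nt share it was -16.6. Each had p = 0.0556, the smallest that the exact permutation of genotypes within hairpins can give, and an adjusted p of 0.171 over 40 measures, so none passed. All rest on 1 Col-0 library that carries the WT hairpin, without which no value can be formed. If the library numbers mark transgenic lines, line and genotype cannot be told apart.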

How the results depend on the processing

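No paired analysis was possible because the nrpd1a libraries (2 and 18) share no number with the Col-0 libraries (12 and 13), and with first-table controls added a block on the number leaves the genotype effect without an estimate. Of the 16 classes, 8 passed in edgeR. The count was 4 with the library size of both strands, 2 with TMM, 2 with ocp11 libraries sharing the dispersion, 1 with first-table controls in place, and 0 with these added (2 at an unadjusted p under 0.05). DESeq2 called 6 (4 higher, 2 lower). In the 4 libraries, length shares and the antisense share of stem reads carry a counting error of at most 0.851 percentage points; the antisense part of a single length carries more (nrpd1a library 2: 1.74 at 23 nt, 5.81 at 25 nt). Leaving out 1 library gave 3 to 6 calls (3 without nrpd1a library 2). The cause was not tested.

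With first-table controls in place, signs turned for the 24-nt sense share (7.23 percentage points), its ratio to 21 nt (0.125), the excess of sense over antisense 24-nt share (2.91), the 22-nt and 23-nt antisense shares (0.543 and -2.07), the antisense part of 21-nt reads (5.04), sense reads of 18 nt (-0.435), and antisense reads of 19 and 25 nt (0.484 and -0.0545). The edgeR log2 changes of sense 24-nt and antisense 23-nt reads were then 0.58 and -0.21. With these controls added, signs turned for the antisense part of 21-nt reads (0.356), the 18-nt sense share (-0.0582) and the 19-nt antisense share (0.0231). As shares of both strands the 21-nt antisense difference was 0.446 and the difference of hairpin effects on the 24-nt sense share -4.58.

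With 1 library left out, the antisense share of stem reads ran from -0.340 to 3.07, antisense reads of 21 nt from -1.84 to 0.0612 and those of 19 nt from -1.001 to 0.126. The 24-nt difference kept its sign, from -8.91 to -6.32 in sense and from 1.80 to 4.35 in antisense reads. Over 20 to 24 nt and with both stems summed no single share or ratio turned sign.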
